A study of Caenorhabditis elegans with 4 samples.

Results

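The binding sites described here are the peaks of ZIP-2 that lay in the central parts of autosomes II, III, IV and V of Caenorhabditis elegans. They were mapped by chromatin immunoprecipitation with sequencing (ChIP-seq), in which DNA crosslinked to a protein is pulled down with an antibody and read. A site of the combined peak list was taken as a member when its midpoint lay above 25% and at most 75% of the span of its chromosome, with the span running to the highest peak end on that chromosome in any of the 3 lists. The rule used position only, and it gave 291 of the 755 combined sites. The centre held 66 sites on chromosome II, 55 on III, 70 on IV and 100 on V. Another 202 sites lay on the arms of the same chromosomes, and 177 lay on X.

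All samples were hermaphrodites of strain OP432 at the fourth larval stage (L4), fed E. coli HB101 at 20 °C and fixed in 2% formaldehyde. All carried the mutation unc-119(ed3) III and the integrated transgene wgIs432, in which zip-2 is fused to a TY1-GFP-3xFLA tag and joined by a working copy of the mutated gene, unc-119(+). Chromatin was pulled down with antibodies to GFP in 2 ChIP samples, numbered replicate 1 and 2, and 2 input samples were kept from lysates before the pull-down. The transgene came from bombardment and the tagged protein was read in whole animals, so the lists hold the summed signal of all cells, and neither a strain without the tag nor a pathogen treatment is named in the labels used here. The replicate 1 list held 315 peaks and the replicate 2 list 192. No label states that the replicates were separate cultures, and depth is unknown because the lists hold no read counts.

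ZIP-2 belongs to the basic leucine zipper (bZIP) family of transcription factors, which bind DNA as dimers through a basic region and a leucine zipper. In the worm it is known for switching on defence genes in the intestine when Pseudomonas aeruginosa or another agent blocks translation. The autosomes of this species have a shared architecture: their centres recombine little and are rich in conserved and widely expressed genes, while their arms recombine often and carry more repeats and silenced chromatin. The positions below are those of the WormBase WS180 build. No genome or annotation of that build was used, so the sites are named by position, without genes or sequences.

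Sites of the combined list were denser in the centres than on the arms, while those in both replicate lists were not. The 4 centres, 33.5 Mb in all, held 8.69 sites per Mb, and the arms of the same length held 6.04, a 1.44-fold difference. Of the 493 sites on II to V, 59.0% were central, in 50% of the span. The centre of III held 8.07 sites per Mb and its arms 4.55 (63.95% central). On V the densities were 9.59 and 6.04 (61.3%), on IV 8.10 and 6.13 (56.9%), and on II 8.70 and 7.25 (54.5%). These shares rest on the same positions that define the members, so they are given as a description, with no test. The order of the chromosomes depended on the sites kept: with peaks within 2000 bp merged, 62.5% were central on III and 62.6% on V, and in the stronger 50% of combined sites 56.0% and 58.3% were. In the stronger 50%, the central share of all sites on II to V was 54.2%, and in the strongest 20%, added after the data were seen, it was 52.5%. Of the 95 sites on II to V in both replicate lists, 47 were central (49.5%). The share was 60.2% of the 118 in 1 list and 61.8% of the 280 in neither.

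**Figure D1:**
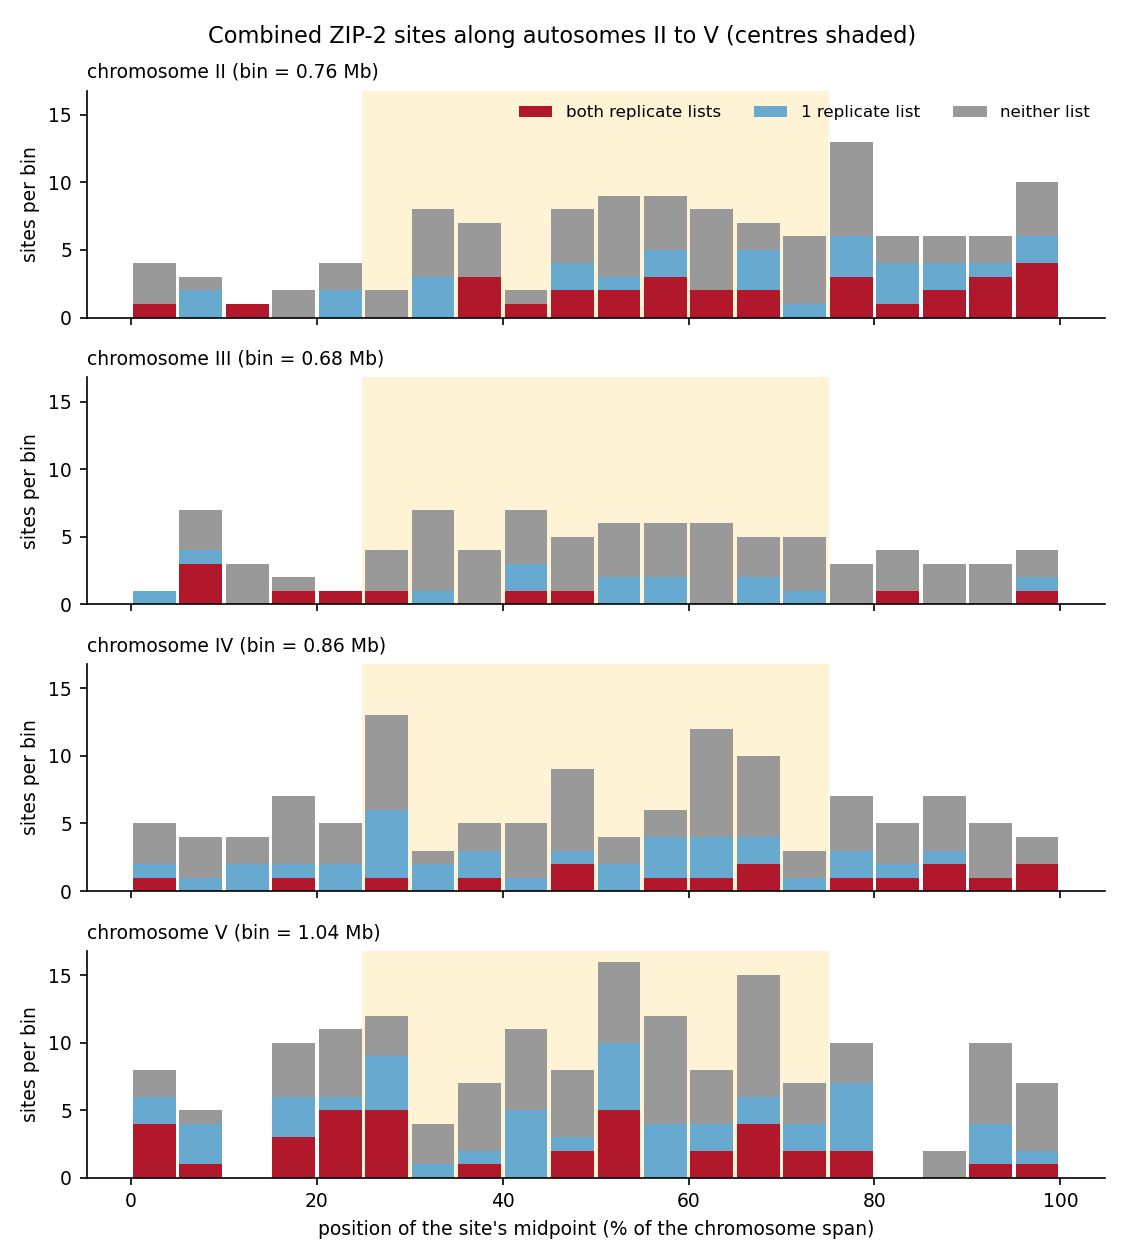
Number of combined ZIP-2 sites in each 5% bin of the span of chromosomes II to V, by the position of the site's midpoint (x axis, percent of the span; y axis, sites per bin). Bar colours give replicate support and the shading marks the centres; bins of the centre of V reach 16 sites, and those of III hold 4 to 7.

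The number of sites varied along each centre. In bins of 5% of the span, the centre of III held 4 to 7 sites per bin with a median of 5.5. The centre of V held 4 to 16 per bin and that of IV held 3 to 13, while on II the range was 2 to 9. On V, 24 of the 100 sites lay between 45% and 55% of the span. On II, 17 of the 66 sites lay in that stretch and another 17 in the next, from 55% to 65%. Bins of the same percent differ in length between chromosomes, from 0.681 Mb on III to 1.04 Mb on V.

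The centre sites were short, with a median width of 603 bp, an interquartile range of 422.5 to 972.5 bp and extremes of 133 and 8702 bp. Arm sites had a median of 553 bp and X sites one of 602 bp. Among the centres, III had the highest median width, 722 bp, against 571 bp on II, 579.5 bp on IV and 560 bp on V. It also had the narrowest range, from 304 to 1747 bp, and its widest site was narrower than those of the other centres. Widths and strengths are given as descriptions and were not tested between regions.

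Strength is given as the −log10 of the authors' q-value, which ranks sites within a list and reflects sequencing depth besides enrichment. The median over the centre sites was 6.29, with an interquartile range of 4.85 to 9.98 and a maximum of 74.8. Arm sites had a median of 7.11 and X sites one of 6.72, with maxima of 211 and 98.2. The centres were thinly represented at the very top of the combined list: they gave 2 of its 20 strongest sites and 11 of its 50 strongest, or 22.0%, while they held 38.5% of all sites. Of its 151 strongest sites, 52 were central (34.4%). X gave 12 of the 20 strongest and 23 of the 50, and the arms gave 5 and 14. Chromosome I, with 85 sites, gave 1 and 2, so a small share at the top was not particular to the centres. The medians of the 4 centres were close to each other, at 6.06 on II, 6.62 on III, 6.03 on IV and 6.41 on V.

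Of the 291 centre sites, 47 overlapped a peak of both replicate lists by at least 1 bp (16.2%, exact 95% binomial interval 12.1 to 20.9%), where 20.3% of all 755 combined sites did. At least 1 replicate list supported 118 of them (40.5%, 34.9 to 46.4%), against 42.9% of all combined sites. Replicate 1 alone supported 59, replicate 2 alone supported 12, and 173 (59.5%) were in neither list, against 57.1% of all combined sites. Overlap with a replicate list is not independent evidence of binding, since the combined list comes from those very samples, and absence from a list means no call at the limit the authors used.

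Support was lower in the centres than on X, which was taken whole, with its ends, so position and chromosome are not separated in this comparison. The tests treat sites as independent, which neighbouring sites are not. On X, 52 of 177 sites were in both lists (29.4%, 22.8 to 36.7%), and the odds of being in both were 0.463 times as high in the centres (two-sided Fisher's exact test, Benjamini-Hochberg adjusted over 4 tests, p = 0.00407). At least 1 list supported 52.5% of X sites (odds ratio 0.616, adjusted p = 0.0256, same exact test), a call that was lost in the stronger 50% of the list (odds ratio 0.672, adjusted p = 0.34). On the arms of II to V, 48 of 202 sites were in both lists (23.8%, 18.1 to 30.2%), a share also below that of X, though not tested against it. The difference from the centres passed the threshold of 0.05 by a narrow margin (odds ratio 0.618, adjusted p = 0.0497, same exact test). Over the alternatives run, its adjusted p ranged from 0.0211 to 0.495 (same exact test), and the call was lost in 4 of them: with the middle 33.3% of the span taken as the centre, with the span started at the lowest peak, and in the stronger 50% or the strongest 20% of the list. At least 1 list supported 47.0% of arm sites, which did not differ from the centres beyond the threshold (odds ratio 0.768, adjusted p = 0.166, same exact test). Read the other way, 49.5% of the 95 sites on II to V found in both lists were central, against 60.2% of the 118 in 1 list and 61.8% of the 280 in neither.

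Support followed strength in the centres, as it did on the arms and on X. Both measures come from the same samples, so this trend is not independent evidence of binding. When the combined list was divided into 5 groups of 151 sites by q-value, 36 of the 52 centre sites in the strongest group were in both lists (69.2%, 54.9 to 81.3%) and 51 were in at least 1. In the second group, 10 of 61 were in both lists (16.4%) and 44 in at least 1 (72.1%). In the third, 1 of 53 was in both and 14 in at least 1 (26.4%). In the last groups, 0 of 61 and 0 of 64 were in both, with upper exact bounds of 5.87% and 5.60%, and 6 and 3 sites were in at least 1. From the strongest group to the weakest, the shares in both lists on the arms were 80.9, 19.1, 2.94, 0 and 0%. On X they were 97.4, 34.4, 4.88, 3.23 and 0%. The strongest group also held 39 X sites, of which 38 were in both lists (97.4%, 86.5 to 99.9%), against 69.2% of its centre sites (two-sided Fisher's exact test, odds ratio 0.0592, adjusted p = 0.00277 over 4 tests). X sites in that group were also stronger, with a median −log10 q of 34.3 against 18.1 in the centres and 20.4 on the arms, and the part of strength in this difference was not tested. Of the 47 arm sites in the group, 38 were in both lists (80.9%), which did not differ from the centres beyond the threshold (odds ratio 0.533, adjusted p = 0.495, same exact test). The comparison within the strongest group was added after the lists had been examined.

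**Figure D2:**
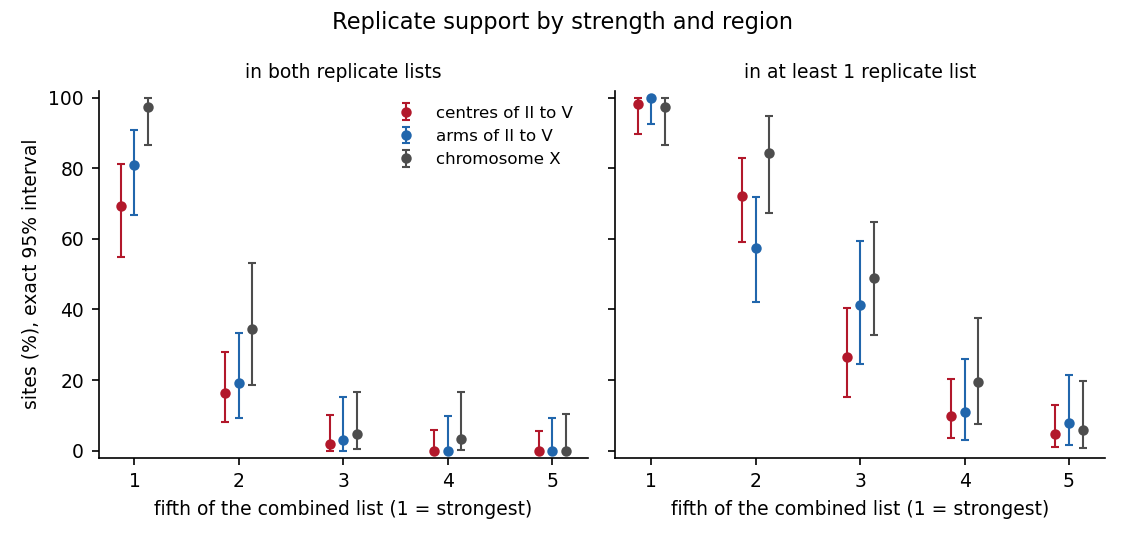
Percent of sites (y axis) in both replicate lists (left) and in at least 1 (right) for 5 groups of 151 combined sites from strongest to weakest (x axis), for the centres and arms of II to V and for X. Points are shares and bars are exact 95% binomial intervals; in the strongest group 69.2% of centre sites and 97.4% of X sites were in both lists.

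The share of sites in both lists ranged from 5.45% to 22.7% among the centres, and no centre passed the test against the others. On II, 15 of 66 sites were in both lists (22.7%), and on V 21 of 100 were (21.0%). On IV the count was 8 of 70 (11.4%) and on III it was 3 of 55 (5.45%, exact 95% binomial interval 1.14 to 15.1%). Set against the other centres together, III had the lowest odds ratio, 0.252 (Fisher's exact test, Benjamini-Hochberg adjusted over the 4 centres, p = 0.0578). Among 7 alternatives, III passed only in the stronger 50% of the list (odds ratio 0.184, adjusted p = 0.0139, same exact test). It missed the threshold in the other 6, with an adjusted p of 0.276 for midpoints within 250 bp and 0.729 in the strongest 20% (same exact test). The odds ratios of II, IV and V were 1.77, 0.602 and 1.69 (adjusted p = 0.174, 0.266 and 0.174, same exact test). On the arms of III, 7 of 31 sites were in both lists (22.6%); the centre of III was not tested against them.

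The centre of chromosome III held few sites in the replicate 2 list. That list had 3 peaks there, against 19 in the centre of II, 13 in that of IV and 29 in that of V. The replicate 1 list had 13, 29, 30 and 47 peaks in the centres of III, II, IV and V. Each of the 3 replicate 2 peaks on III had a replicate 1 partner. In neither list were 42 of the 55 combined sites of this centre (76.4%), against 57.1% of all combined sites. Of the other sites of this centre, 3 were in both lists and 10 in replicate 1 alone. On the arms of III, 21 of 31 sites were in neither list (67.7%) and 0 in replicate 2 alone. Unlike the centre, these arms held 7 replicate 2 peaks, and 7 of their 31 sites were in both lists (22.6%, against 5.45% in the centre). The genes zip-2 and unc-119, both carried by the transgene, are on chromosome III in the WBcel235 gene table; their WS180 positions were not used here, so the distance of any site from them is not given.

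The strongest site of all the centres lay on chromosome II, at 10541795 to 10550496, with a −log10 q of 74.8 in the combined list, 26.3 in replicate 1 and 24.6 in replicate 2. It ranked 12th in the combined list. At 8702 bp it was also the widest of the centre sites, and replicate 1 split it into peaks of 2352 and 1832 bp while replicate 2 called 1 peak of 3134 bp. The next on II, at 5543339 to 5544573, was 1235 bp wide and had values of 43.3 in the combined list, 25.8 in replicate 1 and 18.9 in replicate 2. The third, at 8743199 to 8748121, was again broad (4923 bp) and had values of 36.3, 9.88 and 10.2 in the same order. This was the one named site of II where replicate 2 gave the higher value. The fourth and the fifth, at 8127958 to 8129170 and at 5844572 to 5845273, had combined values of 30.0 and 26.6 and were in both lists.

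On chromosome V the strongest centre site, at 6222535 to 6230001, was likewise broad and split. It was 7467 bp wide, with a −log10 q of 73.7 in the combined list, 19.3 for the best of its 3 replicate 1 peaks and 15.2 for the best of its 4 replicate 2 peaks. The second, at 5586812 to 5587705, was 894 bp wide and had the most even replicate values, 32.4 and 30.6, with 54.6 in the combined list. It ranked 16th in replicate 2, the best rank of any named centre site there. The third and the fourth were neighbours, at 10940025 to 10941380 (37.1 combined, 25.3 in replicate 1, 16.6 in replicate 2) and at 10937914 to 10939157 (32.1, 21.8 and 14.4). The fifth, at 5575921 to 5576572, had values of 30.7, 17.2 and 11.8. All 5 were in both lists, and the second and the fifth lay together between 5575921 and 5587705.

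On chromosome III the first 3 sites stood apart from the rest. The strongest, at 5580749 to 5581813, had a −log10 q of 57.5 in the combined list, 32.4 in replicate 1 and 16.1 in replicate 2. The second, at 6374900 to 6375558, had 47.9, 22.4 and 14.3, and the third, at 3866771 to 3867742, had 27.6, 14.1 and 11.9. The replicate 1 values were the higher in each. The fourth and the fifth, at 5943388 to 5944582 and at 4195077 to 4196012, fell to 17.0 and 13.6 in the combined list and to 7.47 and 4.85 in replicate 1, with no replicate 2 peak.

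On chromosome IV the strongest centre site had no partner in replicate 2. It lay at 12209785 to 12213993, was 4209 bp wide and had a −log10 q of 37.8 in the combined list, and replicate 1 split it into 3 peaks of which the best had 12.5. The next 4 were in both lists. The second, at 4749822 to 4750241 (420 bp), had values of 20.7, 12.7 and 8.82 in the combined list, replicate 1 and replicate 2. The third, at 6209275 to 6209715 (441 bp), had 20.5, 14.3 and 6.32. Both were narrower than the median of 1204 bp for centre sites among the 151 strongest of the combined list. The fourth, at 11592962 to 11594644, had 19.1, 11.7 and 6.28, and the fifth, at 9510733 to 9511913, had 14.5, 5.63 and 4.87. In the combined list, the first 3 sites of IV had lower values than the first 3 of each other centre, rank by rank. Over the 20 sites named for strength, 17 were in both lists and 3 in replicate 1 only. In both lists were 69.2% of the centre sites among the 151 strongest, 16.2% of all centre sites and 20.3% of all combined sites. The 20 were chosen by combined q-value, which comes from the same samples as the support, so their count is a description. Of the 17, 16 had the higher value in replicate 1, though q-values rank sites within a list only.

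**Figure D3:**
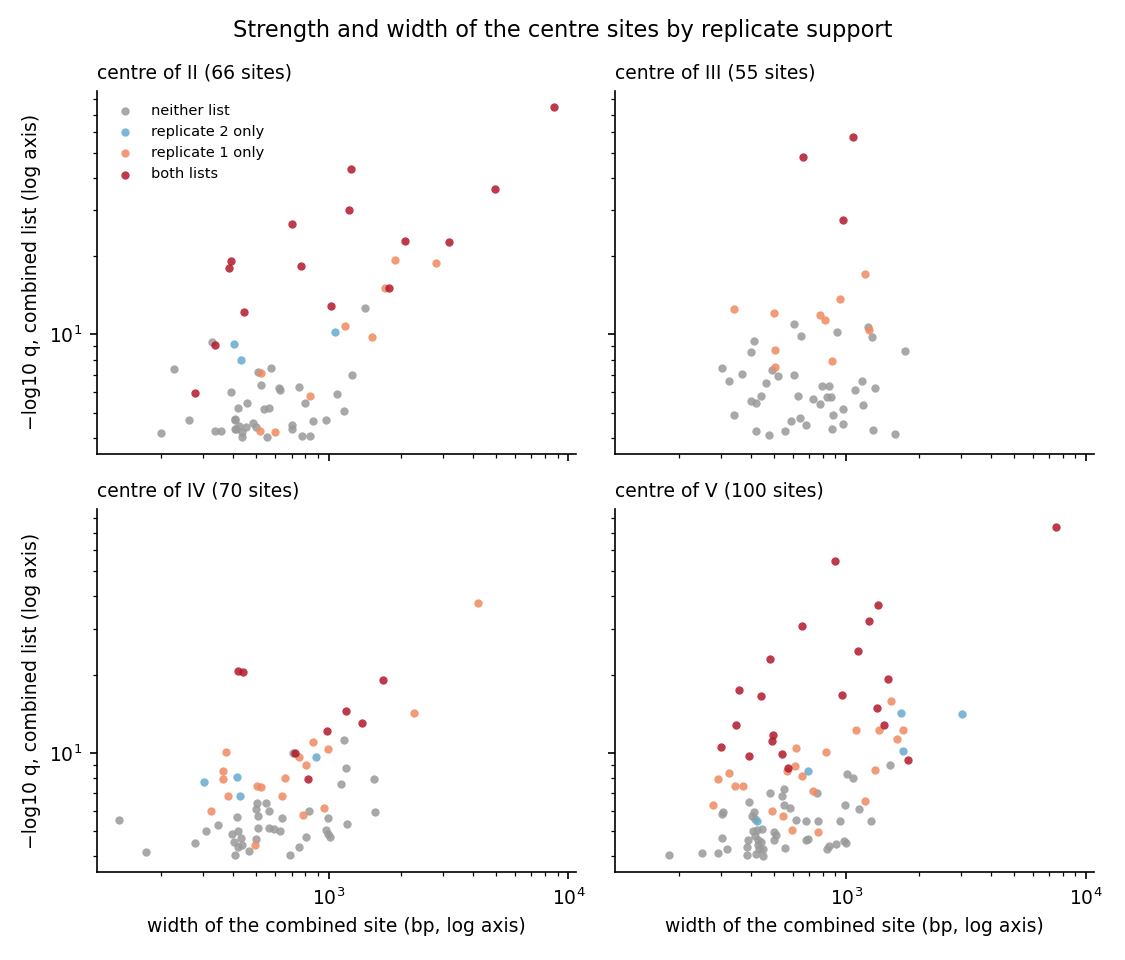
Strength (y axis, −log10 q in the combined list, log axis) against width (x axis, bp, log axis) of the 291 centre sites, one panel per chromosome, each point a site coloured by replicate support. Sites in both lists have a median of 18.0 and a lowest value of 5.93, the centre of III has 3 of them and no site above 1747 bp, and the broad sites of II and V reach 74.8 and 73.7.

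Wider centre sites tended to be stronger, except on III. Spearman's rho between width and −log10 q over sites was 0.39 in all centres (n = 291), with 0.45 on II (n = 66), 0.38 on IV (n = 70), 0.45 on V (n = 100) and 0.066 on III (n = 55). The trend was not particular to the centres, with a rho of 0.44 on the arms (n = 202) and 0.62 on X (n = 177). These are descriptions over sites of 1 list, where both measures may depend on depth. Sites in both lists had a median width of 894 bp and a median −log10 q of 18.0. Sites in replicate 1 only had 726 bp and 8.50, those in replicate 2 only had 560 bp and 8.86, and those in neither list had 548 bp and 5.16. The 12 sites in replicate 2 only, 3 on II, 4 on IV and 5 on V, had −log10 q-values of 5.46 to 14.3. Sites in neither list were weak in each centre, with medians of 4.71 on II, 5.81 on III, 5.12 on IV and 4.90 on V. They were also weak on the arms and on X, with medians of 5.29 and 4.98. Widths above 2000 bp occurred in 9 centre sites (3.09%), of which 5 were on II, 2 on IV and 2 on V. Of these 9, 5 were in both lists and 0 in neither. On the arms, 7 of 202 sites (3.47%) were that wide and 2 of them were in neither list. On X, 4 of 177 sites (2.26%) were, with all 4 in both lists and 0 in neither.

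Broad sites were often called in pieces. In 6 centre sites, 2 or more peaks of 1 replicate list fell into the same combined site, and 5 of these 6 were wider than 2000 bp. Besides those already described, they lay on chromosome II at 9283840 to 9285913, where replicate 2 called 2 peaks, and at 9933397 to 9935283, where replicate 1 called 2. The pieces show which part of a broad site each replicate reached. In the 8702 bp site of II, the replicate 1 pieces ran from 10541828 to 10544179 (−log10 q = 26.3) and from 10544430 to 10546261 (9.01), and the replicate 2 peak ran from 10541834 to 10544967. Both replicates thus covered the left part of this site, and no replicate peak lay to the right of 10546261. In the 4923 bp site of II the calls lay to the right instead, from 8745565 to 8747996 in replicate 1 and from 8746353 to 8747918 in replicate 2.

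In the 7467 bp site of V, the strongest piece of each replicate fell at the same place, from 6224207 to 6225639 in replicate 1 (19.3) and from 6223980 to 6225325 in replicate 2 (15.2). The left pieces of the replicates also overlapped each other, at values of 6.29 and 7.65, as did the next pieces to the right, at 6.82 and 7.29. A further piece, from 6228990 to 6229996, was called in replicate 2 only, at 5.01. In the 4209 bp site of IV the left piece of replicate 1, from 12210014 to 12211280, had the value of 12.5, and the others had 4.63 and 4.29. The lists hold no summits, so separate binding positions within 1 enriched stretch could not be told apart from 1 broad position.

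Where a combined centre site had a single partner, the replicate peak lay close to it and was usually narrower and weaker. In replicate 1, 101 sites had a one-to-one partner, whose midpoint lay a median of 44.0 bp away (upper quartile 94.0 bp, maximum 575 bp). The replicate 1 peak was narrower in 82 of the 101, and the combined q-value was the stronger in 94. In replicate 2, 57 sites had such a partner, at a median distance of 51.5 bp (upper quartile 133 bp, maximum 2745 bp, at the 8702 bp site of II). The peak was narrower in 55 and the combined q-value the stronger in all 57. The combined list comes from the same samples, and q-values reflect depth besides enrichment. Such differences in width and strength describe the lists and are not results about the sites. With midpoints required within 250 bp, 37 of the 291 sites were in both lists.

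In 43 centre sites exactly 1 peak of each replicate met the combined site. Their median −log10 q was 16.6 in the combined list, 10.1 in replicate 1 and 6.65 in replicate 2, and the combined value exceeded both replicate values in all 43. Replicate 1 gave the higher value in 35. Since q-values rank sites within a list only, these differences in level between lists are descriptions. The order of strengths was similar in both lists, with Pearson's r = 0.81 between the log10-transformed values and Spearman's rho = 0.70 over these sites. The points share 2 libraries and are cut off at the limits of both lists, so no p-value is given. The replicate peaks were of like width, with medians of 618 and 635 bp, and their midpoints differed by a median of 62.5 bp.

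**Figure D4:**
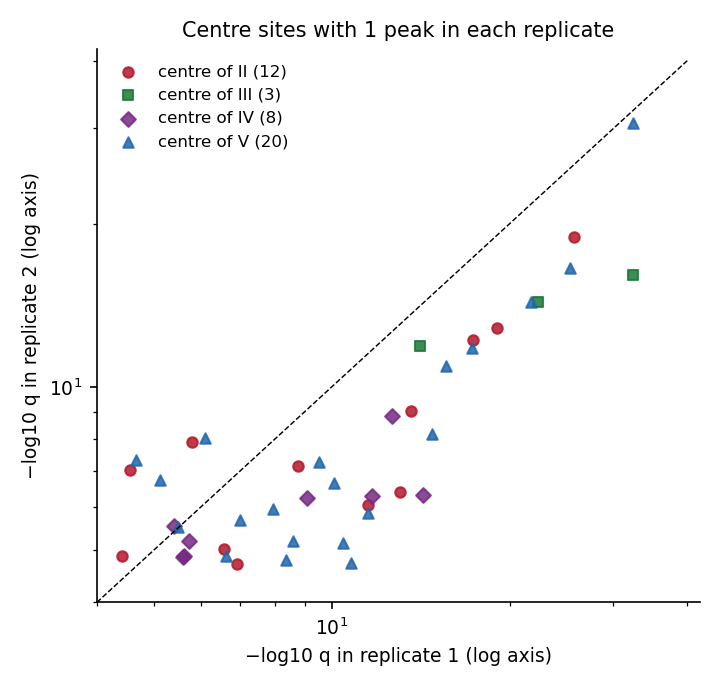
−log10 q in replicate 2 (y axis, log axis) against replicate 1 (x axis, log axis) for the 43 centre sites with 1 peak in each replicate list, each point a site, marked by chromosome; the dashed line marks equal values. Replicate 1 gave the higher value in 35 sites, and the scatter is widest among the weaker sites.

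Neighbouring centre sites were a median of 65.5 kb apart, over 287 gaps with an interquartile range of 11.6 to 174.5 kb. The median gap was 55.1 kb on V, 62.2 kb on II, 72.5 kb on IV and 78.3 kb on III. On the arms of II to V it was 78.0 kb, and on X 66.1 kb. The longest central gaps were 916.5 kb on V, from 6515615 to 7432131, and 672.5 kb on IV, from 6378880 to 7051392. On the arms the longest was 2053 kb. On V the arms, with fewer sites per Mb, had a median gap of 52.1 kb. Gaps were not tested between regions.

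Short gaps were a minority. The next site was at most 2000 bp away in 30 of the 287 central gaps (10.5%, exact 95% binomial interval 7.16 to 14.6%), against 26 of 194 on the arms (13.4%, 8.95 to 19.0%) and 16 of 176 on X (9.09%, 5.29 to 14.3%). The intervals overlap, and no test was applied because gaps share sites. By chromosome, 13 of 99 central gaps on V, 9 of 69 on IV, 5 of 54 on III and 3 of 65 on II were that short. At most 10 kb separated neighbours in 30.4% of the central gaps on IV and in 14.8% of those on III.

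**Figure D5:**
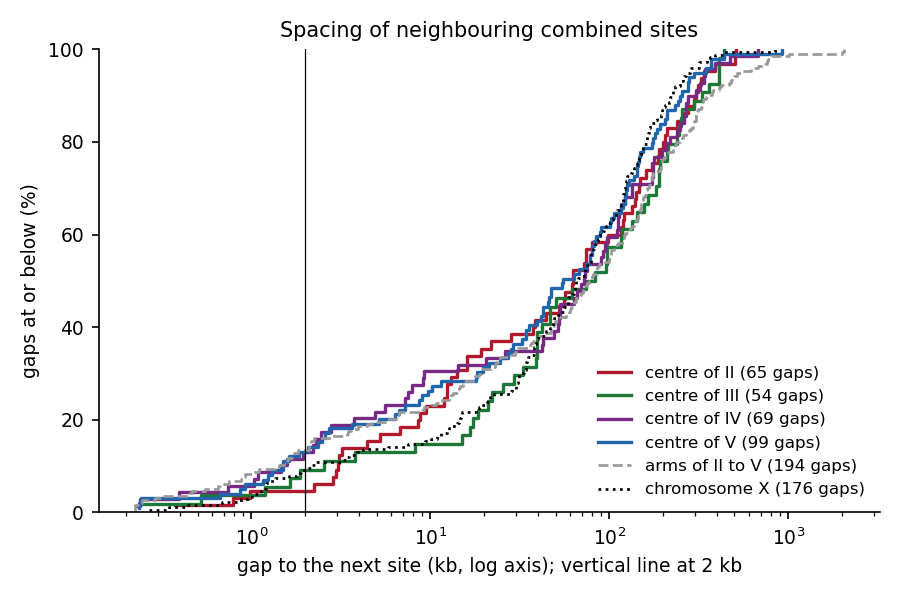
Percent of gaps (y axis) at or below a given length (x axis, kb, log axis) between neighbouring combined sites, for the 4 centres, the arms of II to V and X; each step is a gap and the vertical line marks 2 kb. At that line the centre of V stands at 13.1% and that of II at 4.62%.

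The short gaps joined 57 of the 291 sites into 27 runs, 24 of 2 sites and 3 of 3 sites. V held 11 of the runs, IV 8, III 5 and II 3. Sites in runs had a median width of 972 bp and a median −log10 q of 8.78, against 551 bp and 6.17 for the 234 sites that stood alone. On III, however, the run sites had the lower median −log10 q, 4.99 against 6.63. Of the run sites 15 were in both lists (26.3%), 10 of them on V, and of the others 32 were (13.7%). On II the order was the reverse, with 16.7% of 6 run sites and 23.3% of 60 others in both lists. Some of the strongest sites had close neighbours. The strongest of II ended 979 bp from a site of −log10 q 9.74, and that of V began 235 bp from one of 11.3.

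The other runs of 3 lay on chromosome IV between 8428278 and 8433191, with values of 5.73 to 13.1, and on V between 7432131 and 7437322, with values of 4.56 to 14.9. Each held 1 site in both lists. The tightest run of 3 lay on chromosome V between 10937087 and 10941380, within 4294 bp, of which 1102 bp were gaps. Its outer left site, at 10937087 to 10937678, had a −log10 q of 5.04 in the combined list and 5.11 in replicate 1, with no replicate 2 peak. The other 2 are the third and the fourth strongest centre sites of V given above. The run lay in the densest 100 kb of any centre, which was chosen after the values were seen. There, 8 sites lay between 10859311 and 10954115, 3 of them in both lists, 3 in replicate 1 only and 2 in neither. The third in both lists, at 10897178 to 10897714, had the higher value in replicate 2 (8.03 against 6.10, and 9.93 in the combined list). The densest 100 kb of the other centres held 5 sites on II, 4 on III and 5 on IV, with 0, 0 and 1 site in both lists.

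The strongest centre sites found in neither list were moderate peaks. On II such a site lay at 9616794 to 9618205 (−log10 q = 12.6, rank 137 in the combined list), on IV at 10933091 to 10934249 (11.2, rank 166), on III at 6857206 to 6857809 (11.0, rank 173) and on V at 13089466 to 13090986 (8.99, rank 228). The one on II was the single centre site among the 151 strongest without a partner in either list. The widest centre site of III, at 7736782 to 7738528, was also in neither list, with a −log10 q of 8.60.

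The sites next to the 25% and 75% boundaries were taken as the nearest 2 on each side of each boundary, 16 inside and 16 outside. Those inside lay 3.34 to 746 kb from the boundary, with a median width of 557 bp and a median −log10 q of 5.62 (range 4.47 to 27.6). Those outside lay 83.9 to 1254 kb from it, with medians of 636.5 bp and 8.19 (range 4.11 to 60.8). Of the 16 sites inside, 2 were in both lists and 12 in neither, and of the 16 outside, 4 were in both and 7 in neither. Over the whole centres 16.2% of sites were in both lists and 59.5% in neither. The shares were 23.8% and 53.0% over the whole arms, and 20.3% and 57.1% over all combined sites. These small counts were not tested.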

How the data were processed

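The authors deposited 1 peak list per ChIP replicate and 1 combined list. Per the file headers and columns, PeakSeq called the sites on build WS180 of WormBase, and the score column holds the q-value that the authors gave each peak. The sources used here do not give the aligner, the control, the q-value limit or how the lists were combined. Input samples had no list and entered no comparison.

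From these lists, widths, midpoints, gaps (bases between neighbouring sites), −log10 q and overlaps of at least 1 bp were computed with Python 3.11.15, NumPy 2.4.6, pandas 2.3.3, SciPy 1.17.1 and matplotlib 3.10.9. The span is a lower bound of each chromosome's length. Shares of supported sites were compared with two-sided Fisher's exact tests at an adjusted p of 0.05 (Benjamini-Hochberg over 4 tests), and intervals are exact 95% Clopper-Pearson intervals that cover counting of sites only. With no label on cultures, agreement of the replicates may be technical. The test of sites in both lists between centres and arms was checked on simulated data, with and without a planted difference. The tests among the centres were run on the same simulated data, but no difference among centres was planted. Their ability to find one was therefore not checked. Sites were drawn independently there, so the dependence of neighbouring sites was not covered. The tests against X and those of at least 1 list were not checked in this way. Exact binomial tests of the central share had been planned and are not reported, because the membership rule uses the same positions.

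Sites were named by a rule: the 5 strongest of each centre, the widest, the strongest in neither list, the tightest largest run, and those nearest the boundaries. The members and lists were chosen with earlier results of these data known. The planned use of nearest gene starts needed a WS180 annotation and was not run. Alternatives were other definitions of the centre, the span and the overlap, stronger sublists, merged peaks and 1 replicate at a time.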

Additional observations from a re-analysis of the deposited data

How the results depend on the processing

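The lower share of sites in both lists in the centres than on X kept its direction and its call under all 7 alternatives run for it (odds ratio 0.0592 to 0.472). The central share on II to V, a description, was 39.6% with the middle 33.3% of the span as the centre, 58.2% with the span started at the lowest peak and 59.7% with peaks merged within 2000 bp. It was 54.2% in the stronger 50% and 52.5% in the strongest 20%. On III it was 43.0% with the middle 33.3%, 56.0% in the stronger 50% and 62.5% with merged peaks, and it fell below 50% in the strongest 20% (46.7%). On V it was 41.1% with the middle 33.3% and 58.3% in the stronger 50%, and fell below 50% in the strongest 20% (48.8%). The difference from the arms in sites of both lists was lost with the middle 33.3% (odds ratio 0.732), the later span start (0.645), the stronger 50% (0.716) and the strongest 20% (0.533). For sites in at least 1 list, the odds ratio against the arms, never past the threshold, turned to 1.20 in the stronger 50%; that against X missed the threshold there (0.672) and turned to 1.34 in the strongest 20%. The lower support on III passed only in the stronger 50% (0.184), and that on IV turned in the strongest 20% (1.40). With 1 replicate at a time, the odds ratio for support was 0.647 to 0.773 against the arms and 0.472 to 0.649 against X; both lists cannot be required then. The other alternatives changed no call on support, and where a call was lost the cause was not tested. The strongest 20% was added after the data were seen. No paired analysis was possible because the input samples have no list used here and each ChIP replicate has 1 list.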

Other observations

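Of the 119 replicate 1 peaks in the same centres, 113 overlapped a combined site, as did 63 of the 64 replicate 2 peaks. The 6 replicate 1 peaks left out, 2 each on II, IV and V, had −log10 q-values of 4.30 to 5.49, and the replicate 2 peak left out, at chromosome IV 9438758 to 9439367, had 5.39. None of these 7 peaks had a partner in the other replicate list. Between the replicates themselves, 50 of the 64 central replicate 2 peaks met a replicate 1 peak (78.1%, exact 95% binomial interval 66.0 to 87.5%), against 49 of 60 on the arms (81.7%, 69.6 to 90.5%). In the other direction, 51 of 119 central replicate 1 peaks met a replicate 2 peak (42.9%, 33.8 to 52.3%), against 48 of 89 on the arms (53.9%, 43.0 to 64.6%). These shares were not tested.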
